A study of Homo sapiens with 12 samples.

Results

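The comparison described here set Caco-2 cells given the second of a pair of SIRT1 siRNAs (KD2) against cells given a scrambled siRNA. Its members were taken from the sample titles: the arrays numbered KD2 2 and KD2 3 (n = 2) and siRNA control 1 and 2 (n = 2), which make 4 of the 12 arrays of the series. Caco-2 is an established human colorectal adenocarcinoma line with epithelial features, and RNA levels were read on Illumina bead arrays. The siRNA cells received 1 siRNA each and were lysed 72 h later: KD2 (n = 2), KD1, a SIRT1 siRNA that shares no sequence overlap with KD2 (n = 2), or a low-GC scrambled siRNA (n = 2). The remaining arrays came from cells transfected with a SIRT1 plasmid, pCMV-ENTRY Sirt1 (n = 3), or with pCMV-Neo as its negative control (n = 3), and entered here through the variance estimate and as a second level to set values against. The series describes its replicates as biological, in duplicate for the siRNAs, and all come from 1 cell line. No untreated cells were among the groups.

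SIRT1 is a protein deacetylase of the nucleus that consumes NAD, and its targets include histones, p53, FOXO factors and NF-kB subunits, so it links the energy state of a cell to transcription. In gut epithelium it has been studied for its part in metabolism, stress responses and the crypt stem cells. Interferon-stimulated genes, the group with the most changes below, are antiviral genes switched on when a cell senses foreign nucleic acid or receives interferon, through transcription factors that bind a shared promoter element.

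Levels are background-corrected, quantile-normalised log2 intensities, so a difference of 1 is a 2-fold change, and levels of different probes are not compared with each other. On the KD2 arrays 17185 and 16186 probes were detected, against 17483 and 17981 on the scrambled arrays, within the 15345 to 17981 of all 12. Gut epithelium markers carried the label: CDH1, CDH17, EPCAM, KRT8, CDX2 and VIL1 were detected on all 12 arrays, EPCAM at 13.61 and 13.56 with KD2 and 13.56 and 13.70 with the scrambled siRNA, while LGALS4 and FABP1 did not pass the detection filter. Among markers of other cell types, 5 of 8 fibroblast, 3 of 7 leukocyte and 1 of 5 endothelial markers passed. The defining leukocyte genes PTPRC and CD3E did not. With 2 arrays a side, an exact permutation test of a single gene cannot go below p = 0.333, so each test below is limma's moderated test, two-sided, with p adjusted over the 11458 genes tested and a threshold of 0.05.

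SIRT1, the gene the siRNA is aimed at (chromosome 10), had log2 levels of 7.83 on KD2 replicate 2 and 7.14 on replicate 3, against 8.54 and 8.83 on the scrambled arrays. Both KD2 arrays lay below both scrambled arrays, and replicate 3 lay lower. SIRT1 fell 2.31-fold (log2 fold change -1.20, SE 0.22, 95% interval -1.69 to -0.72, limma adjusted p = 0.0492). The fall was 1.77-fold on the authors' normalised values and 1.84-fold without background correction. Measured against the scrambled mean, the difference was -0.86 on replicate 2 and -1.55 on replicate 3. Without replicate 3 the log2 fold change was -0.86 (adjusted p = 0.17), and without replicate 2 it was -1.55 (adjusted p = 0.0203). The call was also lost without scrambled control 1 (-1.35, adjusted p = 0.169), without control 2 (-1.06, adjusted p = 0.299) and without either KD1 array (-1.20, adjusted p = 0.0634). The KD1 arrays stood at 7.31 and 7.29, and KD2 did not differ detectably from KD1 (KD2 minus KD1 +0.18, SE 0.22, adjusted p = 0.794). On the SIRT1 plasmid arrays SIRT1 stood at 8.62, 8.58 and 8.76, against 8.49, 8.54 and 8.93 on the pCMV-Neo arrays. A single SIRT1 probe passed the detection filter, and whether it reads the plasmid transcript was not examined.

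**Figure D1:**
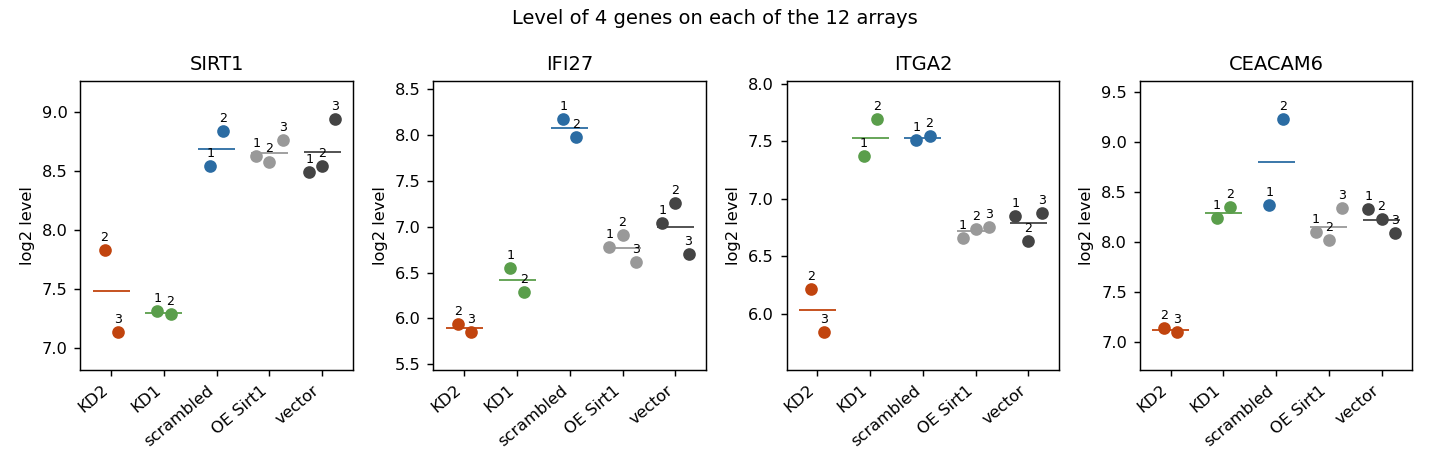
Log2 level (y axis) of SIRT1, IFI27, ITGA2 and CEACAM6 on each of the 12 arrays, by group (x axis). Each point is 1 array with its replicate number above it, and each line is the group mean. The KD2 points of all 4 genes lie below the scrambled points, with SIRT1 at 7.83 and 7.14 further apart than IFI27 at 5.94 and 5.86.

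Across all genes, 50 of 11458 (0.436%) passed, 12 higher (0.105%) and 38 lower (0.332%) with KD2, by 1.59-fold to 4.53-fold. Of the 12, LINC01918 and SNORD76 were detected on the KD2 arrays alone and passed the detection filter only through them, so their tests carry no weight and 48 calls remain. At an unadjusted p under 0.05 there were 1451 genes (12.7%), 528 higher and 923 lower. The median log2 fold change of all genes was -0.03, and 54.7% of genes lay below 0. In each of the 50, both KD2 arrays lay on the same side of both scrambled arrays, an arrangement found in 42.2% of all genes. A gene was taken to be carried by both KD2 arrays where the smaller of their differences from the scrambled mean had the sign of the fold change and was at least 0.5 of the larger. By this rule all 50 were carried by both arrays, against 29.9% of all genes, while 33.3% of all genes were carried by replicate 2 and 36.8% by replicate 3. A test on their mean favours genes that differ on both arrays, though it does not require this, so the share among the 50 follows in part from the test.

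The size was not even, however. Replicate 3 had the larger difference in 35 of the 50 and replicate 2 in 15 (AIDA, AOC1, CA2, CEACAM1, CTSZ, IFITM1, ISG15, KYNU, MME, MTMR11, PUDP, SERPINA3, SORCS2, TMBIM6 and TMED10P1). Leaving out 1 array showed the same imbalance. Without replicate 2, limma called 50 genes, 29 of them among the original 50. Without replicate 3 it called 7, of which IFI27, IFIT1, IFIT2 and ITGA2 were among the 50. The other 3, chosen for mention after their values were seen, were CCNO, a cyclin of multiciliated cells, IGFBP6, which binds insulin-like growth factor, and TNFSF10, the death ligand TRAIL. These 3 were carried by replicate 2, with TNFSF10 at 4.95 on replicate 2 and 6.21 on replicate 3, against 6.52 and 6.75 on the scrambled arrays. The calls also depended on the scrambled arrays: without control 1 only CEACAM6 and IFI27 passed, and without control 2 only IFI27 and TMED10. In each of these 4 fits all 50 genes kept their sign, which was fixed in advance, since their KD2 and scrambled arrays did not overlap. Fitted with the 6 siRNA arrays alone, only IFI27 passed, with 1145 genes at an unadjusted p under 0.05.

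**Figure D2:**
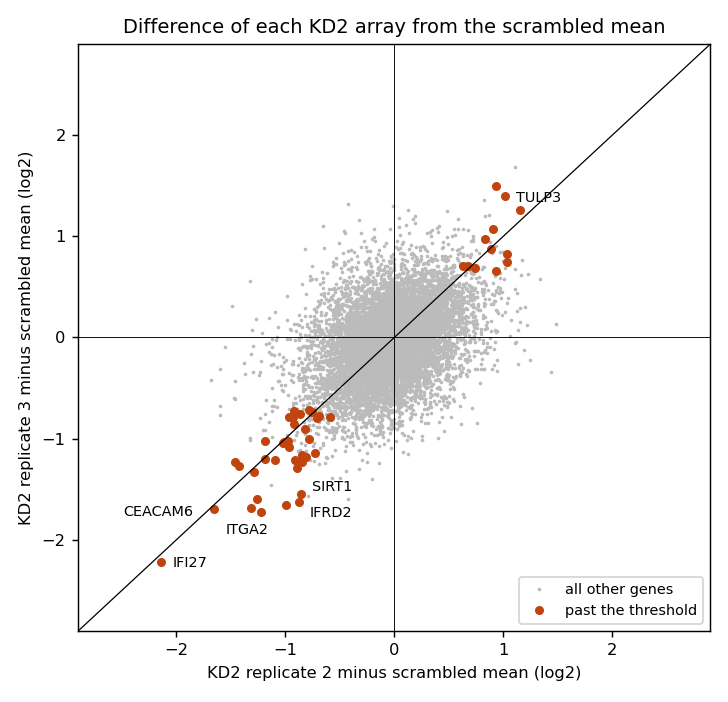
Difference of KD2 replicate 3 (y axis) against that of replicate 2 (x axis) from the scrambled mean, log2, for each of the 11458 genes. The 50 genes past the threshold lie off 0 on both axes, and 35 of them have the larger difference on replicate 3; the line marks equal differences.

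Interferon-stimulated genes, 34 of the 11458 genes tested, made up 8 of the 38 genes that fell: IFI27, IFIT1, OAS3, IFITM1, MX1, IFIT2, ISG15 and OAS1. Their promoters are known for the interferon-stimulated response element, and the core letters of that element, GAAA followed by any 2 bases and GAAA again, were searched on both strands of RefSeq promoters from 250 bases before to 50 bases after the start (GRCh38.p14). Matches that overlap each other were each taken as a match. The 4 interferon genes with the largest falls among those in the promoter table are printed 5′ to 3′ along the gene, with matches on either strand in capitals.

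IFI27, chr14:94110486-94110785, plus strand: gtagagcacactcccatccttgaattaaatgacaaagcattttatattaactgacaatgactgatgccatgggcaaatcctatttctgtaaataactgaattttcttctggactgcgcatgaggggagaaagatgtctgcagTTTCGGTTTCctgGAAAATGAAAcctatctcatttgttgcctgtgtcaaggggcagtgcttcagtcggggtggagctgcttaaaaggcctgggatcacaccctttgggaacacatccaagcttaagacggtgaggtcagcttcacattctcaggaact
IFIT1, chr10:89392373-89392672, plus strand: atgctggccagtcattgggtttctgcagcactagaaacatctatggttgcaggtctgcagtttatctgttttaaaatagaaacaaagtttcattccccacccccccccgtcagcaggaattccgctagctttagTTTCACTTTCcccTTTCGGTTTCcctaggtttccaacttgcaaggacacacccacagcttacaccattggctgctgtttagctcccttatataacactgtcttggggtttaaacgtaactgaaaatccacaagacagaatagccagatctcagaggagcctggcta
OAS3, chr12:112938224-112938523, plus strand: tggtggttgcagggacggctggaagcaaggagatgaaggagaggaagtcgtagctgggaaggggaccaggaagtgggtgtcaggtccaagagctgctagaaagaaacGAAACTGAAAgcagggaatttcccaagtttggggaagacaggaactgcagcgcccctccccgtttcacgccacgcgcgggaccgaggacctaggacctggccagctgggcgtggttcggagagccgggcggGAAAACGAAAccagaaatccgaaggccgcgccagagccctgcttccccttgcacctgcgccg
IFITM1, chr11:313790-314089, plus strand: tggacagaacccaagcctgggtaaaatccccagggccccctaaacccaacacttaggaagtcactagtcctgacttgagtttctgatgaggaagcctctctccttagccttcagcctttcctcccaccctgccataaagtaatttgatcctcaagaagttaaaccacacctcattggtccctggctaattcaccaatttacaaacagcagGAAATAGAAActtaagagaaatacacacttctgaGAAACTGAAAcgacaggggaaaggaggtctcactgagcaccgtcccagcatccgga

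Each of these 4 promoters held 2 matches. In IFI27 they begin 108 and 95 bases before the start, in IFIT1 116 and 103, in OAS3 143 and 12, and in IFITM1 40 and 6. Among tested interferon genes with a promoter in the table, 20 of 30 (66.7%) held a match. The share was 6 of 7 (85.7%) among those that fell, with OAS1 the exception and IFIT2 not in the table. It was 248 of 9210 (2.69%) among all tested genes and 996 of 27305 (3.65%) among all promoters. Outside the interferon list, 1 of 27 promoters of genes that fell (3.7%) held a match, that of CEACAM1, as did 0 of 7 promoters of genes that rose. A match is a run of letters and not a measured binding site.

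Most effectors that fell are interferon-induced proteins that act on viral RNA or on virus entry. IFI27, a small mitochondrial and nuclear membrane protein that is among the strongest interferon-induced genes, had levels of 5.94 and 5.86 with KD2, against 8.17 and 7.98 with the scrambled siRNA. Both KD2 arrays were low and close together. It fell 4.53-fold (log2 fold change -2.18, SE 0.18, limma adjusted p = 0.00178). The fall was 2.16-fold on the authors' normalised values and 2.36-fold without background correction. IFI27 passed in each fit that left out 1 KD2 or scrambled array.

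IFIT1, which binds viral RNA that lacks a host-type cap, stood at 7.64 and 7.14 with KD2, against 9.00 and 8.73 in the scrambled cells. Replicate 3 was the lower, and the fall was 2.78-fold (-1.47, SE 0.16, adjusted p = 0.00758). Its neighbour IFIT2, of the same family, stood at 6.02 and 6.00 with KD2, against 7.17 and 7.23 in the scrambled cells (-1.19, SE 0.12, adjusted p = 0.00516), with the KD2 arrays nearly equal. Its fall of 2.29-fold was 1.44-fold on the authors' values and 1.52-fold without background correction.

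The oligoadenylate synthetases, which sense double-stranded RNA and activate RNase L, fell as well. OAS3 had 6.94 and 6.62 with KD2, against 8.12 and 8.29 with the scrambled siRNA, a 2.69-fold fall (-1.43, SE 0.17, adjusted p = 0.00758). OAS1 fell 2.04-fold (-1.03, adjusted p = 0.0492; 1.33-fold on the authors' values), and its other passing probes stood at -1.26 and -0.99. MX1, a GTPase that traps viral nucleoproteins, had 7.71 and 7.04 with KD2, against 8.87 and 8.55 in scrambled cells. It was among the most uneven genes called, at -1.0 on replicate 2 and -1.66 on replicate 3 (log2 fold change -1.33, SE 0.22, adjusted p = 0.0304), and without replicate 3 its adjusted p was 0.125.

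IFITM1, which blocks the fusion of virus and cell membranes, and ISG15, a ubiquitin-like protein that is joined to other proteins, leaned the other way. IFITM1 had 8.12 on KD2 replicate 2 and 8.35 on replicate 3, against 9.78 and 9.38 in the scrambled cells (-1.35, SE 0.19, adjusted p = 0.0156). ISG15 had 10.04 and 10.20 with KD2, against 11.45 and 11.00 (-1.10, SE 0.20, adjusted p = 0.0432). In both the groups did not overlap, scrambled control 1 was the highest array and replicate 2 the lowest. IFITM family members are close in sequence, and probes may share signal. IFITM3 stood at -0.50 (adjusted p = 0.148) and IFITM2 at -0.20 (adjusted p = 0.697).

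Of 49 listed interferon-stimulated genes 34 passed the detection filter, and 31 of the 34 lay below 0, against 54.7% of all genes. The median log2 fold change was -0.54, against -0.03 over all genes, at -0.47 on replicate 2 and -0.53 on replicate 3. It was -0.34 on the authors' values, -0.35 without background correction and -0.89 with median scaling, which moved the median of all genes to -0.34. In 30 of the 34 the KD2 and scrambled arrays did not overlap, against 42.2% of all genes. Among 27 effectors 8 fell, against 0.332% of all genes, with a median of -0.59. Among 7 sensors and signalling factors none passed by limma, all 7 lay below 0 and the median was -0.40. The RNA sensor IFIH1 (MDA5) stood at -0.80 (adjusted p = 0.0749), the interferon signalling subunit IRF9 at -0.61 (adjusted p = 0.0656) and the transcription factor IRF7 at -0.42 (adjusted p = 0.368). The members above 0 were XAF1 (+0.47), IFI44L (+0.24) and EPSTI1 (+0.09), with none past the threshold. The other 15 members did not pass the detection filter.

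The mean of the 34 genes, each centred on its mean over the 12 arrays, was -0.16 and -0.24 on the KD2 arrays and -0.16 and -0.27 with KD1, against 0.44 and 0.37 on the scrambled arrays. On the SIRT1 plasmid arrays it ran from -0.05 to -0.03, and on the pCMV-Neo arrays it was 0.12, 0.06 and -0.02. The scrambled arrays were thus the highest of the 12 for this list, and all comparisons with them share those 2 arrays. Leukocyte markers moved in the same direction: LYZ stood at -0.61, CD68 at -0.60 and CD14 at -0.33, with none past the threshold. Their centred mean was -0.17 and -0.13 with KD2, against 0.32 and 0.41 with the scrambled siRNA. Their part in the result was not tested. Only 3 of 7 leukocyte markers passed the detection filter, PTPRC and CD3E were not among them, and all arrays came from 1 epithelial line. Within such a line, bulk RNA cannot tell a change in the share of cells from a change in RNA per cell.

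Adhesion genes gave the next largest falls. CEACAM6, a lipid-anchored adhesion molecule raised in colorectal cancer, had 7.14 and 7.10 with KD2, against 8.36 and 9.23 in scrambled cells. The KD2 arrays were alike and the scrambled arrays were not. It fell 3.20-fold (-1.68, SE 0.23, limma adjusted p = 0.012). Without scrambled control 1 it stood at -2.11 (adjusted p = 0.00466), without control 2 at -1.25 (0.0574) and without KD2 replicate 3 at -1.66 (0.0932). CEACAM1, its relative with a signalling tail, had 7.54 and 7.70 with KD2, against 8.82 and 9.12 (-1.35, SE 0.22, adjusted p = 0.0249), and its other probe gave -1.46. CEACAM genes are similar in sequence, and probes may share signal.

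ITGA2, the collagen-binding integrin alpha 2 subunit, had 6.21 and 5.84 with KD2, against 7.52 and 7.55 with the scrambled siRNA. The scrambled arrays were nearly equal and replicate 3 was the lowest. The fall was 2.84-fold (-1.50, SE 0.16, adjusted p = 0.00516), 1.64-fold on the authors' values and 1.74-fold without background correction. No other of 11 integrin subunits tested passed: ITGA1, the other collagen-binding subunit listed, stood at -0.98 (5.43 and 4.61 with KD2, against 5.99 and 6.00, adjusted p = 0.108) and ITGA9 at +0.87 (adjusted p = 0.0699). Among 15 CEACAM and gut adhesion genes 2 fell, against 0.332% of all genes, and 11 lay below 0, against 54.7% (median -0.29). The cadherin CDH1 stood at +0.03 and EPCAM at -0.05.

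Of the enzymes of antioxidant defence and detoxification, 4 fell: GPX2, UGT1A6, AKR1C2 and NQO1. GPX2, the glutathione peroxidase of gut epithelium, had 9.14 and 9.02 with KD2, against 10.29 and 10.18 (-1.15, SE 0.14, limma adjusted p = 0.00869). UGT1A6, which joins glucuronic acid to phenols, had 7.77 and 7.38 with KD2, against 8.64 and 8.70 (-1.09, SE 0.16, adjusted p = 0.0156). In both genes all KD2 values lay well below the scrambled ones.

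AKR1C2, an aldo-keto reductase of steroids, fell 2.03-fold (-1.02), and NQO1, a quinone reductase, fell 2.01-fold (-1.01). A second NQO1 probe, far dimmer, stood at -0.06, and the other UGT1A6 probes at -1.12 and -0.65. UGT1A transcripts share exons, and AKR1C genes are near copies, so their probes may read more than 1 gene. In a list of 19 drug-metabolism genes 2 fell, UGT1A6 and NQO1, against 0.332% of all genes, and 16 lay below 0, against 54.7% (median -0.27). A list of NFE2L2 (NRF2) targets, the factor that drives such enzymes, was added after the values were seen: 4 of 26 fell, namely these 4 enzymes, against 0.332% of all genes, and 20 lay below 0, against 54.7% (median -0.27). The list was chosen with these genes known, so its count supports nothing. TXN stood at -0.52 (adjusted p = 0.113) and HMOX1, another target, at +0.29.

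**Figure D3:**
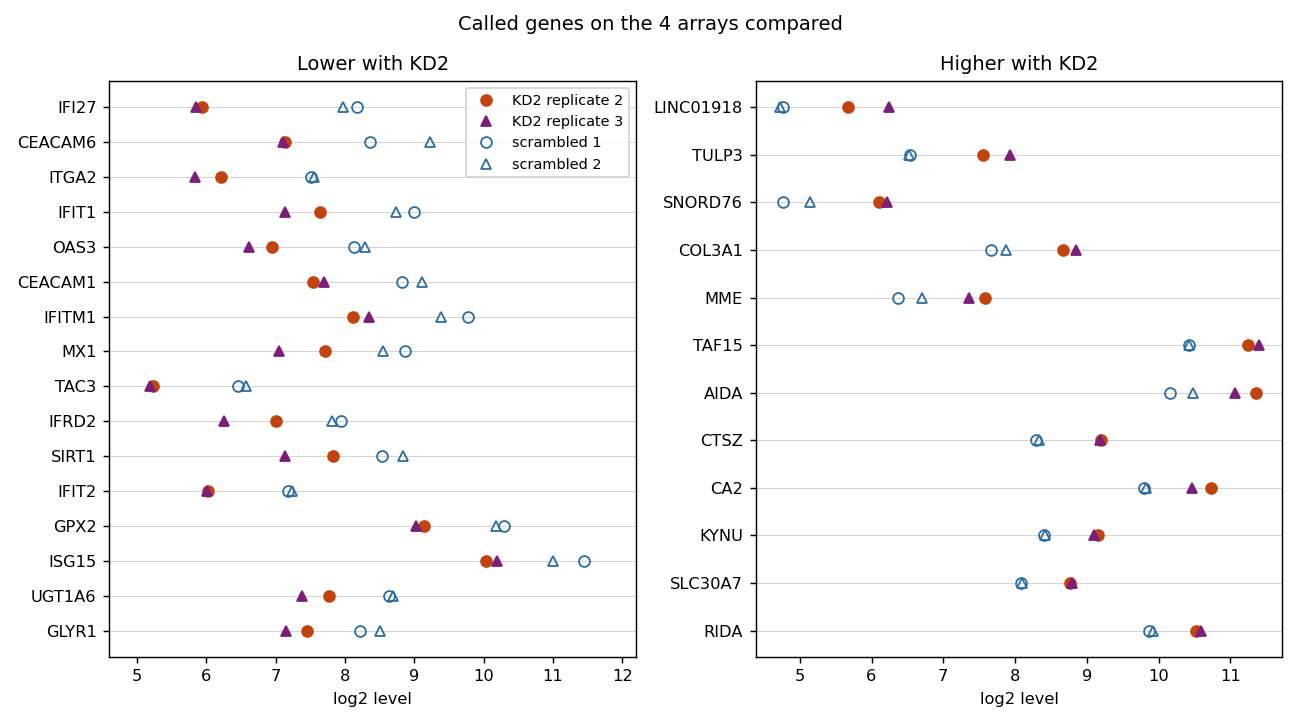
Log2 level (x axis) on the 2 KD2 arrays (filled) and the 2 scrambled arrays (open) of the 16 genes with the largest falls (left) and the 12 genes that rose (right). KD2 and scrambled symbols do not overlap in any row, and IFRD2, SIRT1 and MX1 have the KD2 arrays furthest apart.

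Several further genes outside these groups fell by about 2-fold. TAC3, which encodes the peptide neurokinin B, was detected on both scrambled arrays and on neither KD2 array, so the fall was at least 1.86-fold on this scale (5.23 and 5.19 with KD2, against 6.46 and 6.57, limma adjusted p = 0.00758). On the authors' values it was 1.35-fold, and 1.43-fold without background correction. IFRD2, a ribosome-binding protein that is no interferon-stimulated gene of the list despite its name, had 7.00 on replicate 2 and 6.25 on replicate 3, against 7.95 and 7.81 (-1.26, SE 0.21, adjusted p = 0.0304). Replicate 3 was much the lower, at -1.63 against -0.88.

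GLYR1, a nucleosome-binding protein, had 7.45 and 7.15 with KD2, against 8.21 and 8.51 (-1.06, SE 0.15, adjusted p = 0.012). The groups did not overlap. Further falls of about this size were seen in NAA50 (-1.06), an N-terminal acetyltransferase, RAB32 (-1.04), a small GTPase of organelle traffic, MYPOP (-1.03), a Myb-like factor, and RCN2 (-1.0), a calcium-binding protein of the endoplasmic reticulum. TMED10, a cargo receptor of early secretory vesicles, fell by 1.00 on the log2 scale, and its pseudogene TMED10P1, which resembles it, by 0.82. None of the other 25 TMED and coat protein genes tested passed, and 16 of the 26 lay above 0, with 54.7% of all genes below 0.

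The remaining falls were smaller. They included the chromatin protein MORF4L1 (-0.99), THAP12 (-0.94), TXNIP (-0.89), an inhibitor of thioredoxin, AOC1 (-0.89), the diamine oxidase that breaks down histamine, the importin IPO11 (-0.87) and MTMR11 (-0.86). SERPINA3, an acute-phase protease inhibitor (-0.81), ACSL5, which activates long-chain fatty acids (-0.75), TMBIM6, a cell death suppressor of the endoplasmic reticulum (-0.75), the phosphatase PUDP (-0.75), the brush border motor MYO1A (-0.74) and the Integrator subunit INTS3 (-0.69) completed the list. SORCS2, a sortilin-like receptor, was not detected with KD2 and was at least 1.10-fold lower (1.20-fold on the authors' values). The other ACSL5 probes stood at -0.40 and -0.69. TXNIP was the 1 of 15 FOXO factors and targets to fall, and ACSL5 the 1 of 18 fatty acid oxidation genes, against 0.332% of all genes.

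The 12 genes that rose did not come from a single list. TULP3, a carrier of membrane proteins into cilia, had 7.55 and 7.93 with KD2, against 6.54 and 6.53 with the scrambled siRNA, a 2.31-fold rise (+1.21, SE 0.17, limma adjusted p = 0.0153). The scrambled arrays were equal to within 0.02 and replicate 3 was the highest of the 4. On the pCMV-Neo arrays the mean was 7.25.

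A pair of noncoding RNAs was detected on both KD2 arrays and on no scrambled array. LINC01918, a long noncoding RNA, had 5.68 and 6.24 with KD2, against 4.76 and 4.72, a 1.31-fold difference on the authors' values and 1.38-fold without background correction. SNORD76, a box C/D small nucleolar RNA, had 6.11 and 6.22 with KD2, against 4.77 and 5.15, a 1.30-fold difference on the authors' values and 1.37-fold without background correction. Neither was detected on any of the other 8 arrays. These values are a description, since detection on the KD2 arrays chose both probes.

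COL3A1, a fibrillar collagen chain, had 8.67 and 8.84 with KD2, against 7.66 and 7.87 (+0.99, SE 0.13, adjusted p = 0.012). It was the only 1 of 21 collagen and matrix genes to pass, against 0.436% of all genes. Of the 21, 16 lay below 0, against 54.7% of all genes, and COL1A1 stood at +0.46 and COL1A2 at -0.31. Fibroblast markers did not move together: their centred mean was 0.04 and 0.06 with KD2, against 0.07 and 0.15 with the scrambled siRNA, and DCN, THY1 and FAP did not pass the detection filter.

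The enzymes MME and CA2, both of the brush border and enterocyte list, rose. MME, the membrane peptidase neprilysin, had 7.58 and 7.36 with KD2, against 6.37 and 6.71 (+0.93, SE 0.14, adjusted p = 0.0165). CA2, a carbonic anhydrase, had 10.73 and 10.46 with KD2, against 9.79 and 9.82 (+0.79, SE 0.14, adjusted p = 0.0412), and its other probe gave +0.76. Both had the larger difference on replicate 2. With MYO1A lower, 3 of 23 brush border and enterocyte genes passed, against 0.436% of all genes. Of the 23, 14 lay above 0 (median 0.05), with 54.7% of all genes below 0.

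TAF15, an RNA-binding protein of the FET family, had 11.25 and 11.39 with KD2, against 10.42 and 10.42 (+0.90, SE 0.12, adjusted p = 0.0115), and its other probe gave +1.07. The pCMV-Neo mean was 11.25, equal to KD2 replicate 2 to 2 decimals. TAF15 was the 1 of 14 FET and hnRNP genes to pass, against 0.436% of all genes. Of the 14, 11 lay above 0, with 54.7% of all genes below 0. AIDA, an axin-binding protein, had 11.35 and 11.06 with KD2, against 10.16 and 10.48 (+0.89, SE 0.15, adjusted p = 0.0349). Here too the pCMV-Neo mean, 11.00, lay near the KD2 arrays and above both scrambled arrays. Of the 50 genes, 15 also passed between the scrambled and pCMV-Neo arrays with KD2 and pCMV-Neo on the same side of the scrambled siRNA. They include IFI27, IFIT1, OAS3, IFITM1, ISG15, CEACAM1, ITGA2, UGT1A6, MTMR11, TULP3, TAF15 and AIDA. MTMR11 averaged 6.10 with KD2, against 6.96 with the scrambled siRNA and 6.04 with pCMV-Neo. The scrambled arrays enter both comparisons with opposite signs, which favours such a pattern. How many of all genes passed between the scrambled and pCMV-Neo arrays was not counted, so the 15 cannot be set against a share.

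The other 4 genes that rose had close replicates. CTSZ, a lysosomal carboxypeptidase, had 9.19 and 9.18 with KD2, against 8.29 and 8.33 (+0.88, adjusted p = 0.022). It was the 1 of 16 lysosomal genes to pass, against 0.436% of all genes. KYNU, which cleaves kynurenine in tryptophan breakdown, had 9.16 and 9.10 with KD2, against 8.40 and 8.42 (+0.72, adjusted p = 0.0426). Its other probe gave +0.69, and TDO2, of the same pathway list, stood at +0.72 (adjusted p = 0.219). KYNU was the 1 of 8 kynurenine pathway genes to pass, against 0.436% of all genes. Of the 8, 4 lay below 0, against 54.7% of all genes, with a median of -0.02 and the lowest at -0.66. At an unadjusted p under 0.05, 2 were higher and 2 lower.

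SLC30A7, a zinc transporter of the Golgi, had 8.76 and 8.79 with KD2, against 8.08 and 8.09 (+0.69, adjusted p = 0.0226). RIDA, an enzyme that clears reactive imines, had 10.52 and 10.59 with KD2, against 9.86 and 9.92 (+0.67, adjusted p = 0.0249), and its other probe gave +1.31. In all 4 the KD2 arrays differed by less than 0.1, with each pair above both scrambled arrays. In all, 12 other passing probes existed for 9 of the 50 genes, and all 12 had the sign of the probe used.

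Lists of genes known for their ties to SIRT1 were counted in the same way. Of 15 other sirtuin and NAD metabolism genes none passed by limma, 2 had an unadjusted p under 0.05, both higher, and the median was -0.03. NMNAT3, a mitochondrial NAD synthase, stood at +0.62 (adjusted p = 0.229), PARP2 at +0.34 (adjusted p = 0.38) and SIRT5 at +0.23 (adjusted p = 0.412), and with plain median scaling PARP2 and SIRT5 turned to -0.03 and -0.13. None of 19 p53 targets and none of 17 NF-kB factors and targets passed, with 1 and 5 at an unadjusted p under 0.05, against 0.436% of all genes past the threshold and 12.7% at an unadjusted p under 0.05. The clock gene PER2 stood at -0.64 (7.85 and 7.66 with KD2, against 8.37 and 8.42, adjusted p = 0.0634), with none of 15 clock genes past the threshold and 2 at an unadjusted p under 0.05.

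Of 40 DNA replication genes none passed and 30 lay below 0, against 54.7% of all genes. Of the 40, 6 had an unadjusted p under 0.05, all lower, against 12.7% of all genes in either direction. The median of the 40 was -0.14, at -0.03 on replicate 2 and -0.18 on replicate 3, against -0.02 and -0.03 over all genes. GINS2, of the replicative helicase, stood at -0.47 (adjusted p = 0.131). Among 33 E2F, cyclin and cell cycle genes, CCND1, cyclin D1, had 10.99 and 10.93 with KD2, against 11.46 and 11.75, just short of the threshold (-0.65, adjusted p = 0.0516). None of the 33 passed, 9 had an unadjusted p under 0.05, against 12.7% of all genes, and the median was -0.08. VIM, the mesenchymal filament protein vimentin, stood at +0.83 (10.10 and 10.60 with KD2, against 9.52 and 9.53, adjusted p = 0.0684).

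No gene passed by limma in 7 further lists, against 0.436% of all genes past the threshold and 12.7% at an unadjusted p under 0.05. Antigen presentation by MHC class I, which interferon also raises, had a median of -0.04 over 16 genes with 1 at an unadjusted p under 0.05, the peptide transporter subunit TAP2 (5.50 and 5.30 with KD2, against 6.34 and 6.03, -0.79, adjusted p = 0.0945). Immediate early genes, transcribed soon after a growth signal, had a median of -0.23 over 23 genes with 3 at an unadjusted p under 0.05, and EGR1 stood at -0.54 (adjusted p = 0.179). Cholesterol and fatty acid synthesis genes had a median of 0.07 over 22 genes with 3 at an unadjusted p under 0.05, and the sterol demethylase CYP51A1 stood at +0.91 (9.86 and 9.92 with KD2, against 8.85 and 9.11, adjusted p = 0.179).

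The siRNA and miRNA machinery had a median of -0.04 over 11 genes, 2 of them at an unadjusted p under 0.05, and the nuclease DROSHA stood at -0.47 (adjusted p = 0.124). Medians were 0.06 over 18 endoplasmic reticulum chaperones, -0.04 over 18 ATF4 amino acid stress genes and -0.05 over 13 mitochondrial biogenesis genes, with 2, 2 and 1 at an unadjusted p under 0.05. The lowest p in these 3 lists belonged to the chaperone DNAJB9 (-0.40, adjusted p = 0.224), the pseudokinase TRIB3 (-0.60, adjusted p = 0.332) and the coactivator PPARGC1B (-0.83, adjusted p = 0.163).

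**Figure D4:**
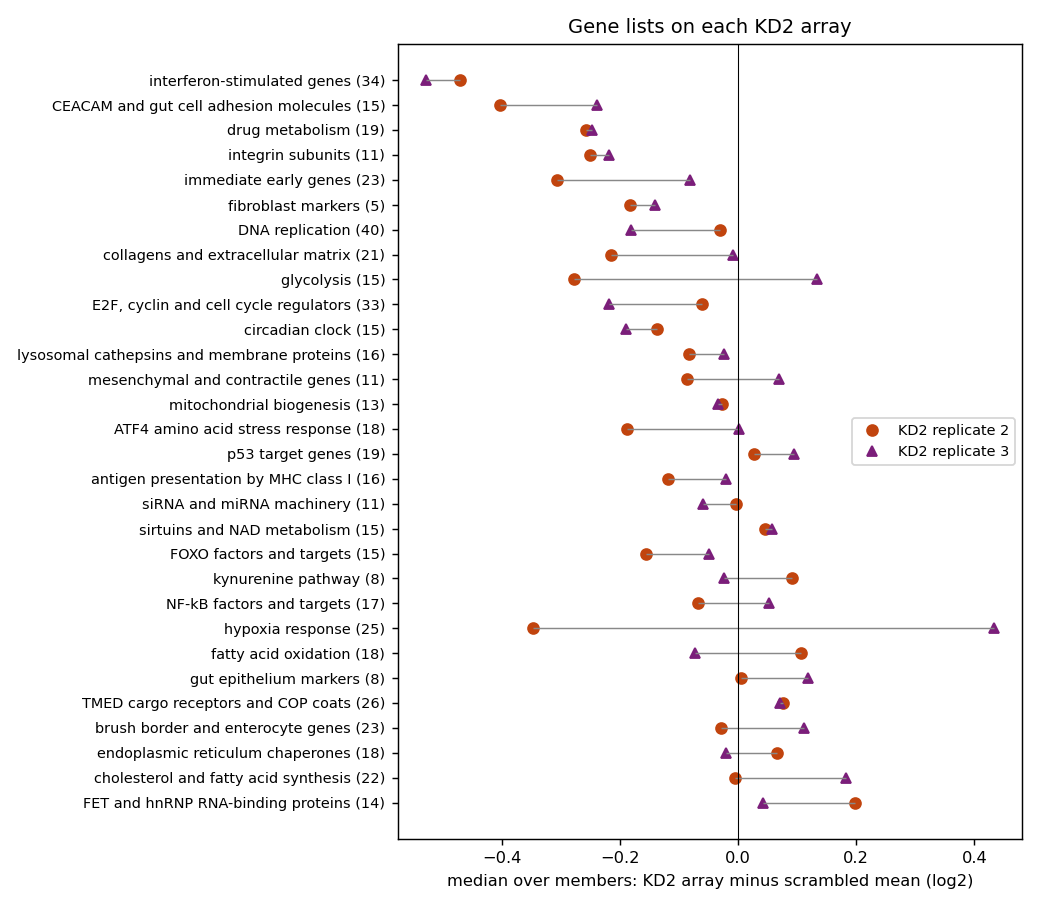
Median difference from the scrambled mean (x axis, log2) over the tested members of each gene list with 5 or more of them, the NFE2L2 list left out (rows, number tested in brackets), for KD2 replicate 2 (circles) and replicate 3 (triangles). The interferon list lies lowest on both arrays, at -0.47 and -0.53, while the hypoxia list lies at -0.35 on replicate 2 and +0.43 on replicate 3.

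Hypoxia-induced genes differed more between the KD2 arrays than between KD2 and control. The median of 25 genes was 0.01 over both arrays, at -0.35 on replicate 2 and +0.43 on replicate 3. Their centred mean was 0.66 on replicate 2 and 1.44 on replicate 3, against 1.10 and 0.93 on the scrambled arrays, which lay between. The KD1 arrays were further apart, at -0.04 and 1.16. None of the 25 passed by limma and none had an unadjusted p under 0.05. ANGPTL4, a lipase inhibitor induced by low oxygen, had 8.03 and 9.04 with KD2, against 8.16 and 7.53 (+0.69, adjusted p = 0.606). P4HA1, a collagen prolyl hydroxylase, had 10.46 and 11.35 with KD2, against 11.38 and 11.37 (-0.47, adjusted p = 0.629). Glycolysis genes split likewise, with medians of -0.28 on replicate 2 and +0.13 on replicate 3. The pCMV-Neo arrays scored -0.92 to -0.84 for hypoxia, below all siRNA arrays.

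Among genes detected on all 12 arrays, those highest on replicate 3 relative to replicate 2 included ZG16, a goblet cell lectin (5.82 and 7.63, replicate 2 first), the receptor gene CSF1R (7.42 and 8.88), TINF2 of the telomere cap (7.61 and 9.05), ANKRD37, a hypoxia-induced gene (10.66 and 12.01) and FOS, an early-response factor (9.09 and 10.43). CCDC183, the receptor kinase AXL, RRAGD, ABCA7 and TMEM37 followed, apart by 1.17 to 1.27. For ZG16 the scrambled arrays stood at 7.41 and 7.22, nearer to replicate 3, and the KD1 arrays at 6.44 and 6.99, between the KD2 arrays. For FOS they stood at 9.76 and 9.97, between the KD2 arrays.

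In the other direction, KMT2A, a histone methyltransferase, was highest on replicate 2 (7.21, with 5.93 on replicate 3), against 6.73 and 6.47 in scrambled cells. TIMM8A, a mitochondrial import chaperone (7.76 and 6.53), ADAM23 (7.15 and 5.96), the hyaluronan synthase HAS3 (7.16 and 5.99), GPM6A, ZNHIT2, CRYBG1, SGTA, the chemokine CCL2 and COA7 followed, apart by 1.07 to 1.23. None of these 20 genes passed against the scrambled siRNA. In all, 209 genes lay more than 1 apart between the KD2 arrays, against 33 between the scrambled arrays and 200 between the KD1 arrays. The median absolute difference between arrays of a group was 0.218 for KD2, 0.210 for KD1 and 0.153 for the scrambled siRNA. At an unadjusted p under 0.05, replicate 3 alone carried 44 higher and 156 lower genes and replicate 2 alone 67 higher and 88 lower, with 417 and 679 carried by both.

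Set against KD1, the other SIRT1 siRNA, 75 genes (0.655%) differed, 21 higher and 54 lower with KD2, and 1387 had an unadjusted p under 0.05. Of the 50 genes that passed against the scrambled siRNA, 19 also differed from KD1, all with the same sign, or 17 without LINC01918 and SNORD76. These comparisons share the KD2 arrays. Of the same 50 genes, 10 also passed with KD1 against the scrambled siRNA, in the direction seen with KD2. They were SIRT1, IFI27, IFIT1, IFIT2, IFITM1, ISG15, TAC3, MTMR11, COL3A1 and RIDA, with KD1 at +0.83 for COL3A1, +0.66 for RIDA and -0.75 for MTMR11. Both siRNAs were set against the same scrambled arrays, which favours such a pattern, and the share of all genes passing with KD1 was not counted. ITGA2 had 6.21 and 5.84 with KD2, against 7.37 and 7.69 with KD1 (KD2 minus KD1 -1.51, SE 0.16, limma adjusted p = 0.00773), and the KD1 and scrambled means were both 7.53. TMED10 had 8.09 and 8.03 with KD2, against 9.28 and 9.30 with KD1 (-1.23, SE 0.12, adjusted p = 0.00639). GLYR1 followed at -1.21. None of the 8 interferon genes was among the 19, and the median KD2 minus KD1 difference of the interferon list was 0.04.

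Genes that differed from KD1 but did not pass against the scrambled siRNA included DYRK4, a protein kinase, with 7.68 and 7.74 for KD2, against 6.48 and 6.42 for KD1 (+1.26, SE 0.15, adjusted p = 0.0103), and scrambled arrays at 7.34 and 7.44. JPT1 (+1.09), BBIP1 of the ciliary BBSome (+1.03) and ALOX5AP, needed for leukotriene synthesis (+1.01), were also higher than with KD1. SOX2, a stem cell factor (-1.27), UBD, a ubiquitin-like modifier (-1.24), and MSMB, a secreted prostate and mucosal protein (-1.24), were lower. For UBD the KD2 arrays (6.93 and 7.51) lay near the scrambled arrays (7.06 and 6.73), and the KD1 arrays stood apart at 8.33 and 8.61.

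**Figure D5:**
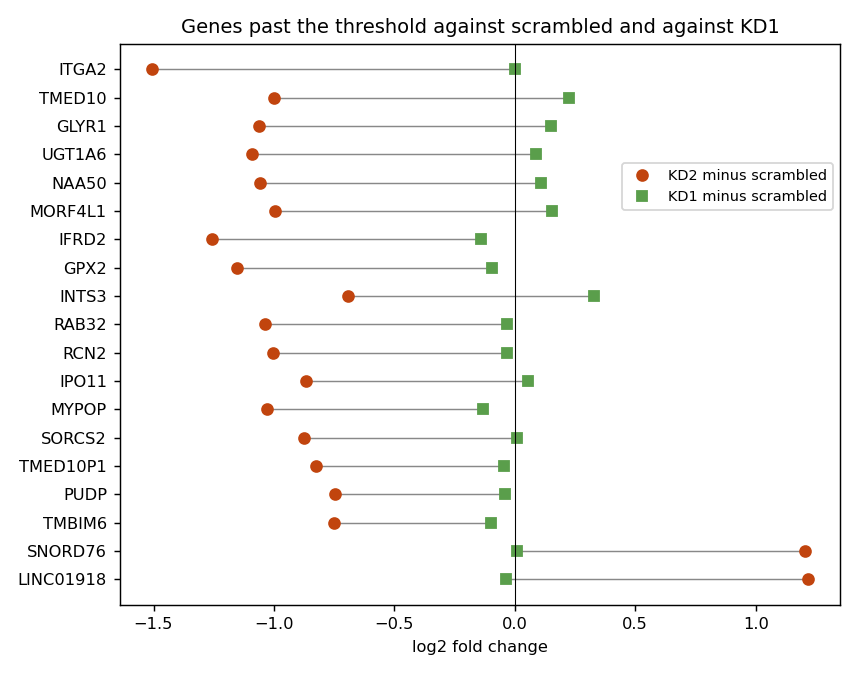
Log2 fold change from the scrambled siRNA (x axis) with KD2 (circles) and KD1 (squares) for the 19 genes past the threshold both against the scrambled siRNA and against KD1. For the 17 lower genes KD2 values run from -1.50 to -0.69 and KD1 values from -0.14 to +0.33, while LINC01918 and SNORD76 were detected with KD2 alone and their fitted values are no measured folds; both sets use the same scrambled arrays.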

How the data were processed

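RNA of 12 Caco-2 samples was read on Illumina bead arrays. Per the labels' protocols, RNA came from Trizol and PureLink extraction and was labelled with biotin after amplification. GenomeStudio 2010.1 is named in the submitters' processing notes. The authors deposited raw, unnormalised intensity per probe, with a detection p-value for each (the files hold 1 minus this p). A second deposited table, of normalised log2 values, served as an alternative; how it was made, and any genome build, is not given in the sources used here. Background was removed from all 47323 probes by means of the detection p-values (nec, limma 3.58.1 in R 4.3.3, offset 16), put on a log2 scale and quantile-normalised. Probes with a detection p-value below 0.01 on at least 2 arrays were kept (19263). A single symbol in the platform annotation named 15104 of them, and 4159 had several or none. Entrez identifiers changed 0 symbols. The brightest probe stood for each of 11458 genes, and 2946 genes had several.

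The 5 groups of 12 arrays entered 1 limma fit (7 residual degrees of freedom, prior 3.74) with Benjamini-Hochberg adjustment at 0.05. The fit gives every group the same variance per gene. The number of arrays limits precision, with a median SE of 0.175. A gene undetected throughout a group has a fold bounded from the lowest detected level on each array. Named genes were all those past the threshold, the members of each list past it or up to 3 with the smallest p, up to 10 genes apart between the KD2 arrays in each direction, and up to 6 in each direction against KD1. CDH1, IRF7 and other list members outside this rule were named after their values were seen. The members and gene lists were chosen with earlier results of these data known. Promoters were those of RefSeq (GRCh38.p14), found for 9210 tested genes. The steps were tested on simulated data for this comparison (20 simulations, 200 of 11458 genes changed). The simulated noise was independent between arrays and genes, with the same variance per gene in every group. With 1.5-fold changes 0.075% were found and 40% of calls were false, with 2-fold changes 69.8% and 5.19%, and with 3-fold changes 93.3% and 4.94%. In the data the KD2 arrays differed more than the scrambled arrays (median absolute difference 0.218 against 0.153), so these shares need not hold for them. Alternatives covered the arrays fitted, the variance model, background, scaling, filter, probe choice, replicate block and leaving out each siRNA array.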

Additional observations from a re-analysis of the deposited data

Results flagged for a closer look

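For 19 of the 50 genes the effect against the scrambled siRNA differed between the siRNAs, by limma's test of KD2 minus KD1, which is the test of that difference since the scrambled arrays cancel. The largest difference was that of ITGA2, at -1.51, followed by TMED10 (-1.23), GLYR1 (-1.21), UGT1A6 (-1.18), NAA50 (-1.17), MORF4L1 (-1.15) and IFRD2 (-1.12). GPX2 stood at -1.06, INTS3 at -1.02, RAB32 at -1.01, RCN2 at -0.97, IPO11 at -0.92, MYPOP at -0.90, SORCS2 at -0.88, TMED10P1 at -0.78, PUDP at -0.71 and TMBIM6 at -0.65. SNORD76 (+1.20 as fitted) and LINC01918 (+1.25 as fitted) were detected on the KD2 arrays alone and passed the detection filter only through them, so these values are no measured folds and their tests carry no weight, which leaves 17 genes. The adjusted p over the 19 genes ran from 0.00639 (TMED10) to 0.0437 (IFRD2). These are log2 differences of 2 KD2 and 2 KD1 arrays, and the count of all genes past this threshold was 0 without KD2 replicate 3 (1092 at an unadjusted p under 0.05) and 1 without KD1 replicate 1. Groups of 2 or 3 arrays were not examined for outlying samples.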

How the results depend on the processing

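All 50 genes kept their direction under each of the 19 alternatives. That was fixed in advance where only the variance model or the arrays outside the comparison changed, since the fold changes stay the same. It was also fixed where 1 compared array was left out, since the groups did not overlap in any of the 50. The number past the threshold, 50, did not hold. It was 1 with the 6 siRNA arrays alone, 0 with the 4 compared arrays alone (1214 genes at an unadjusted p under 0.05), 172 with a trend and robust variance, 167 on the authors' normalised values, 159 without background correction, 82 with median scaling over all probes, 83 with a filter on the compared groups, and 2 to 59 leaving out 1 array. Of the 50, 49 remained with the trend and robust variance, 46 on the authors' values and 47 without background correction. Lower genes were 76% of calls, but 97.6% with median scaling over all probes, which moved the median of all genes to -0.34, and 64.3% of 42 with median scaling over the passing probes. Scaling over the passing probes and quantiles averaged on the linear scale were chosen after seeing the data. Interferon genes past the threshold numbered 8, and 1 with the siRNA arrays alone, 0 with the 4 arrays alone (19 at an unadjusted p under 0.05), 13 without background correction, and 1 to 7 leaving out 1 array.

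SIRT1 stayed at -1.20 but lost its call with the siRNA arrays alone (adjusted p = 0.274), the 4 arrays alone (0.311), array weights (0.0637), no detection filter (0.0735) and without either KD1 array (0.0634). It stood at -1.21 with linear-scale quantiles (0.0507), at -1.19 with scaling over the passing probes (0.054), and at -1.55 to -0.86 leaving out 1 array, with the call lost without scrambled control 1 (0.169), control 2 (0.299) or KD2 replicate 3 (0.17). SIRT1 kept its call in limma with the trend and robust variance (-1.20, adjusted p = 0.00237) and with median scaling over all probes (-1.56, 0.0111). The call also held on the authors' values (-0.82, 0.00492) and without background correction (-0.88, 0.00475). It held with the filter on the compared groups (0.0358) and the mean of probes (0.047) too. Fold sizes depended on the background: the median size of the 50 log2 fold changes was 1.01, but 0.71 on the authors' values and 0.75 without background correction. The fold shrank by over 1.5 times in 8 genes on the authors' values (IFI27, IFIT2, ITGA2, LINC01918, OAS1, SNORD76, SORCS2 and TAC3) and in 6 without background correction. Against KD1 the 75 genes became 0 with the siRNA arrays alone (1035 at an unadjusted p under 0.05), 163 with the trend and robust variance, 2 with array weights, 162 on the authors' values, 134 without background correction, 1 with median scaling and 0 to 68 leaving out 1 array. Some values of genes not past the threshold changed sign. ERAP2 turned to -0.00549 with the mean of probes and LDHA to +0.21 with scaling over the passing probes. With median scaling CALD1 turned to -0.0703, SESN1 to -0.12, PRKRA to -0.0327, PARP2 to -0.0343 and SIRT5 to -0.13. The cause was not tested.

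With the replicate number as a block, 1 gene passed against the scrambled siRNA, 1 interferon gene (IFI27) and 0 genes against KD1 (1007 at an unadjusted p under 0.05), and SIRT1 stood at -1.26 (0.167). KD2 and the scrambled siRNA share only replicate number 2 (r = 0.147 between deviations from group means, across genes), which does not establish a pairing. Dim genes and 1.5-fold changes are those the signal over background and the array number limit most.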
